A study of Mus musculus with 14 samples.

Results

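The natriuretic peptide system was followed in mouse hearts through 6 genes chosen by name for their place in it, of 54532 gene identifiers counted. Earlier results of these data were known when the genes were chosen, so the choice was not independent of the data. The peptide genes were *Nppa* and *Nppb*, the convertases were *Corin* and *Furin*, and the receptors were *Npr1* and *Npr3*. Their symbols were matched to Ensembl identifiers through the GENCODE M21 annotation of GRCm38, and all 6 were found in each of the 14 libraries.

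Atrial natriuretic peptide (ANP, from *Nppa*) and brain natriuretic peptide (BNP, from *Nppb*) are cardiac hormones that lower blood volume and blood pressure. Both are made as inactive prohormones. Corin, a serine protease of the cardiomyocyte membrane, cleaves proANP, and furin, a proprotein convertase of the secretory pathway, can cleave proBNP. The peptides act through NPR-A (*Npr1*), which makes cyclic GMP (cGMP), and are cleared by NPR-C (*Npr3*). In the adult heart *Nppa* is mainly an atrial gene, and both peptide genes are known as markers of ventricular wall stress and hypertrophy.

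Hearts of 4 mice labeled YG8-800, 4 mice labeled WT, 3 male KIKO-700 mice and 3 female KIKO-700 mice were read as 3′ RNA libraries, 1 per heart. YG8-800 mice lack the endogenous copies of the line's target gene and carry a human transgene of it, and the WT mice were their littermates. KIKO-700 mice carry a knock-in allele of that gene over a deleted allele, and the WT hearts of that cohort were not analysed here. The labels give the strain C57BL/6 and postnatal day 180 for all 14 hearts, whereas the methods of the study give an older age. No group is limited to a cell type, since whole heart tissue was used, and fewer cells of a type cannot be told apart from less RNA per cell. The 2 comparisons were YG8-800 against WT and, within KIKO-700, male against female.

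Total counts ranged from 5226233 to 11650840 per library, and genes of mitochondrial DNA took 28.9% to 44.6% of them. Cardiomyocyte, ventricular and atrial markers were counted in all 14 libraries, so the tissue label was met. The libraries of the YG8-800 experiment did not match the study's description in every respect. *Xist*, an RNA of female cells, stood at 52.0, 0, 49.5 and 0.330 CPM (a count scaled to library depth) in YG8-800 1 to 4 and at 51.1, 43.8, 0.208 and 37.6 CPM in WT 1 to 4, although the study describes these mice as males and the labels give no sex. The KIKO-700 libraries matched their labeled sex, with 0.731 to 1.34 CPM in males and 32.1 to 38.0 CPM in females. It was not settled whether the labels YG8-800 and WT match the genotypes, so every direction below is that of the libraries labeled YG8-800 relative to those labeled WT. In KIKO-700, male 1 stood apart: 8 genes passed an adjusted p under 0.05 in edgeR with it and 864 without it. CPM values were scaled by TMM over the 14 libraries. P-values came from edgeR's quasi-likelihood test, with Benjamini-Hochberg adjustment over all genes tested, and threshold 0.05.

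*Nppa* and *Nppb* are neighbors on chromosome 4 of GRCm38, both on the forward strand. *Nppb* (ENSMUSG00000029019) spans 147985788 to 147987205 and *Nppa* (ENSMUSG00000041616) spans 148000722 to 148002079, with 13516 bases between them. Their promoter windows, from 250 bases before to 50 bases after the RefSeq start on GRCm38.p6, are printed because these adjacent genes are the ligands that the results on the peptides turn on. Capitals mark words that GATA factors (TGATAA or AGATAA), TEAD factors (CATTCC, the MCAT word, here as its complement GGAATG) and the TATA box (TATAAA) are known to use. The windows are chr4:148000472-148000771 for *Nppa* and chr4:147985650-147985949 for *Nppb*. The RefSeq start of *Nppb* lies inside the GENCODE span given above, and so do the marked words of its window.
Nppa: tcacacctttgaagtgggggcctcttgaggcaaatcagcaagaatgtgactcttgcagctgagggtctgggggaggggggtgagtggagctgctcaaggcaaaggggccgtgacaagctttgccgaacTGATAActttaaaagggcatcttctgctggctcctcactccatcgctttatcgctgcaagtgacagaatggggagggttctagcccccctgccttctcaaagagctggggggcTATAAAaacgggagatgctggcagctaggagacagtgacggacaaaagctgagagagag
Nppb: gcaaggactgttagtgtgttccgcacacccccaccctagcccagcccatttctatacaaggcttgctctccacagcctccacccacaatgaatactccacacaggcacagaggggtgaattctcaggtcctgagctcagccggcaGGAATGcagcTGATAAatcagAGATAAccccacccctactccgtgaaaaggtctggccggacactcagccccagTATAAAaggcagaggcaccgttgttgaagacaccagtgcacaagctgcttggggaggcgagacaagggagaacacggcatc
Both windows held TGATAA and TATAAA. *Nppb* held AGATAA and CATTCC as well, and *Nppa* held AAGTG, a word of NKX2-5, at 2 places where *Nppb* had 0. Both strands were searched, and the marked words did not overlap each other. Among 32544 RefSeq promoters of the same length, 18.5% held TGATAA or AGATAA, 14.6% held CATTCC, 13.6% held TATAAA and 46.3% held AAGTG. *Furin* had 2 RefSeq windows, of which chr7:80405387-80405686 held TATAAA and AAGTG and the other held none of these words. *Corin*, *Npr1* and *Npr3* held none of them in their windows either. A match is a description of letters and was not tested as a binding site.

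*Nppa* varied more between hearts of 1 label than between the labels. YG8-800 1 to 4 held 82.2, 232, 766 and 57.8 CPM, against 426, 259, 667 and 464 CPM in WT 1 to 4. YG8-800 3 lay above every WT library, and the other YG8-800 libraries lay below every WT library. The highest YG8-800 library held 13.3 times the lowest, and the highest WT library held 2.57 times the lowest. The fitted log2 fold change of *Nppa* was −0.67 (standard error 0.78, adjusted p = 0.913 from edgeR), and the exact permutation test of mean log2 CPM gave p = 0.229 (two-sided, n = 4 each). The difference of mean log2 CPM, which weighs each heart equally, was −1.33. The value turned on single libraries: without YG8-800 3 the log2 fold change was −1.87 (unadjusted p = 0.00281), and without YG8-800 4 it was −0.32.

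Atrial marker genes moved with *Nppa*. All 10 listed markers, among them *Myl7* and *Myl4* (atrial myosin light chains) and *Sln* (sarcolipin), had counts in the series, and their summed level was 114, 303, 746 and 101 CPM in YG8-800 1 to 4 and 948, 297, 476 and 430 CPM in WT 1 to 4. The 4 YG8-800 libraries had the same order in the atrial sum as in *Nppa*, with YG8-800 3 highest and YG8-800 4 lowest, whereas WT 1 was highest of the WT libraries in the atrial sum but below WT 3 and WT 4 in *Nppa*. Over these 8 libraries log2 *Nppa* and the log2 atrial sum had Pearson's r = 0.925 (permutation p = 0.00295, adjusted over 6 relations 0.00885) and Spearman's rho = 0.833 (p = 0.0154, adjusted 0.0461). Without the 2 libraries farthest from the median atrial sum r was 0.670. Of the 9 atrial markers tested, 0 passed the unadjusted threshold in either direction, against 6.05% of all genes, with a median log2 fold change of −0.77. Ventricular markers summed to 10573 to 17069 CPM in YG8-800 and 6603 to 15289 CPM in WT. The part of atrial tissue in the *Nppa* values was not tested.

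**Figure D1:**
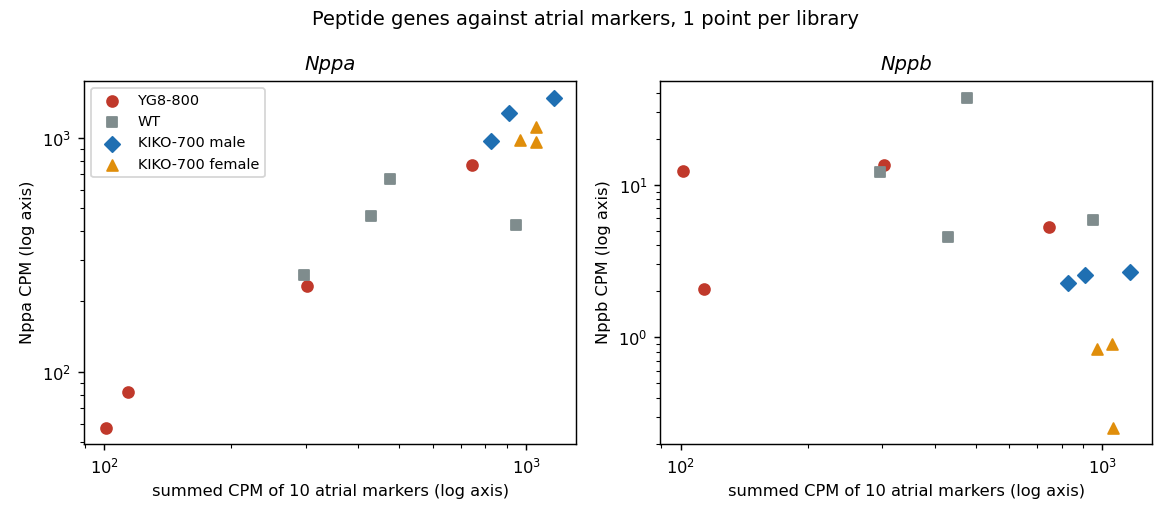
Level of *Nppa* (left) and *Nppb* (right) in CPM against the summed CPM of 10 atrial markers, both axes log, with 1 point per library. *Nppa* is lowest in a YG8-800 library, at 57.8 CPM and an atrial sum of 101. It is highest in a KIKO-700 male library, at 1490 CPM and a sum of 1163. These ends come from different cohorts, so the span between them mixes cohort with atrial sum. Pearson's r of log2 *Nppa* with the log2 atrial sum was 0.925 over the YG8-800 and WT libraries and 0.489 over the KIKO-700 libraries. As deviations from the group means, r was 0.90 for *Nppa* and −0.04 for *Nppb*.

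*Nppb* reached 2.07, 13.4, 5.30 and 12.2 CPM in YG8-800 1 to 4, against 5.83, 12, 37.2 and 4.52 CPM in WT 1 to 4. These values rest on 21 to 111 counts in YG8-800 and 31 to 179 counts in WT. The groups overlapped almost fully, with 1 of 4 YG8-800 libraries below all WT libraries and 0 above. The fitted log2 fold change was −0.84 (standard error 0.80, adjusted p = 0.907 from edgeR, exact permutation p = 0.543), and it was 0.16 without WT 3, the library with the most *Nppb*. The highest *Nppb* levels were in WT 3, YG8-800 2 and YG8-800 4, the 3 libraries in which *Xist* was at most 0.330 CPM. The third place was nearly a tie, since WT 2, with high *Xist*, held 12 CPM against 12.2 CPM for YG8-800 4. Genes of the Y chromosome summed to 60.2, 93.9 and 60.4 CPM in these 3 libraries, in the order named. The same sum was at most 0.636 CPM in the rest of the experiment. Read by these genes, the mix of male and female hearts differed between the labels. With *Xist* as a covariate the log2 fold change was −1.23 (unadjusted p = 0.00632, adjusted p = 0.805).

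The 2 peptide genes did not follow each other in these 8 hearts. Log2 *Nppa* and log2 *Nppb* had r = 0.233 (permutation p = 0.571, adjusted 0.571) and rho = −0.02 (p = 0.977, adjusted 0.977), and r was −0.06 without the 2 libraries farthest from the median *Nppa*. *Nppb* made up 2.46%, 5.44%, 0.688% and 17.5% of the counts of both genes in YG8-800 1 to 4, against 1.35%, 4.43%, 5.28% and 0.964% in WT 1 to 4. YG8-800 4 stood highest, with an exact 95% binomial interval of 14.6% to 20.6%, which covers counting error only. That library had the lowest *Nppa*, at 57.8 CPM, while its *Nppb*, at 12.2 CPM, was below that of YG8-800 2, at 13.4 CPM. The groups overlapped (exact permutation p = 0.629). The share is of read counts per gene and is not a ratio of peptides.

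**Figure D2:**
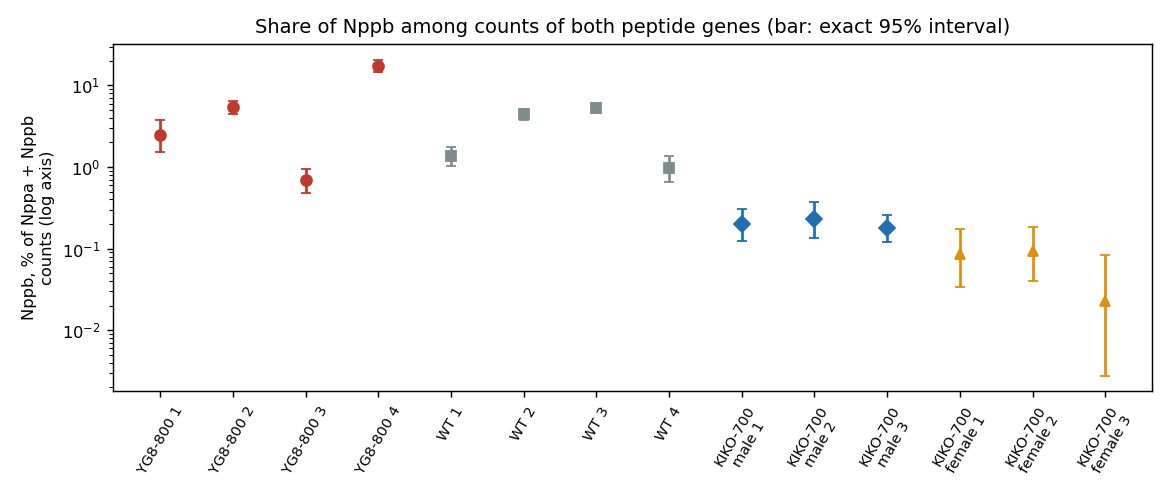
Percent of the counts of both peptide genes that fell on *Nppb*, on a log axis, with 1 point per library and exact 95% binomial intervals. The 8 libraries of the YG8-800 experiment lie between 0.688% and 17.5%, and the 6 KIKO-700 libraries lie between 0.0229% and 0.233%. The share depends on the level of both genes, and line and cohort cannot be told apart.

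*Furin* was lower in every library labeled YG8-800 than in any labeled WT. YG8-800 1 to 4 held 18.7, 13.2, 17.6 and 14 CPM, against 42.7, 48.4, 26.4 and 31.8 CPM in WT 1 to 4. These values rest on 108 to 189 counts in YG8-800 and 127 to 607 in WT. The means were 15.9 ± 2.68 CPM in YG8-800 and 37.3 ± 10.03 CPM in WT (SD, n = 4 each), a level 2.29 times lower in YG8-800 by the fit. The log2 fold change was −1.20 (standard error 0.25, unadjusted p = 0.000293) and the adjusted p was 0.697 in edgeR. The exact permutation p was 0.0286, the smallest that 4 against 4 libraries can give. *Furin* was the 1 of 6 members whose ranges did not overlap. Of the 11875 genes tested 3.69% had such ranges, with YG8-800 lower in 2.26% and higher in 1.43%. *Furin* (ENSMUSG00000030530) lies on the reverse strand of chromosome 7 from 80388585 to 80405436.

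The unadjusted call of *Furin* held in 21 of 21 alternatives, with log2 fold changes of −1.46 to −1.06. The adjusted p was under 0.05 in 3 of them, at 0.0178 without a filter on low counts, 0.0387 with DESeq2 and 0.0377 without WT 4, and over all 21 it ran from 0.0178 to 1.00. Among the 5 libraries with high *Xist*, a setting chosen after seeing the data, the log2 fold change was −1.12 (unadjusted p = 0.0113).

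*Corin* followed *Furin* in part. YG8-800 1 to 4 held 22.4, 17.0, 18.9 and 14.6 CPM, against 55.1, 45.7, 21 and 20.4 CPM in WT 1 to 4. YG8-800 2, YG8-800 3 and YG8-800 4 lay below every WT library, but YG8-800 1 exceeded WT 3 and WT 4, so the lower mean rested on WT 1 and WT 2. The log2 fold change was −0.91 (standard error 0.31, unadjusted p = 0.0111, adjusted p = 0.786 from edgeR), and the exact permutation p was 0.0857. Without WT 1 it was −0.66 and without WT 2 it was −0.77. The unadjusted p stayed under 0.05 in 20 of 21 alternatives and was 0.0696 among the high *Xist* libraries. *Corin* (ENSMUSG00000005220) spans chromosome 5 from 72300025 to 72504473 on the reverse strand.

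Log2 *Furin* and log2 *Corin* had r = 0.873 over the 8 libraries (permutation p = 0.00265, adjusted 0.00885) and rho = 0.857 (p = 0.0107, adjusted 0.0461). Without the 2 libraries farthest from the median *Furin* r was 0.688. Taken as deviations from the 4 group means over all 14 libraries, which removes the differences between groups, r was 0.846.

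The receptor genes differed by less than the spread between hearts. *Npr1*, the guanylyl cyclase receptor of ANP and BNP, had 4.25, 3.06, 6.74 and 4.07 CPM in YG8-800 1 to 4, against 9.86, 3.51, 2.08 and 5.83 CPM in WT 1 to 4. All 4 YG8-800 libraries lay within the WT range (log2 fold change −0.21, standard error 0.42, adjusted p = 0.961 from edgeR). *Npr1* rests on 10 to 93 counts per library here. It lies on chromosome 3 from 90450591 to 90465866 (ENSMUSG00000027931, reverse strand).

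*Npr3*, the clearance receptor, stood at 6.91, 15.4, 18.9 and 12.2 CPM in YG8-800, against 21.1, 10.4, 22.2 and 9.91 CPM in WT. Only YG8-800 1 lay below all WT libraries (log2 fold change −0.22, standard error 0.36, adjusted p = 0.949 from edgeR). *Npr3* lies on chromosome 15 from 11839896 to 11907287 (ENSMUSG00000022206, reverse strand). The directions of both receptors turned when 1 WT library was left out.

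At an unadjusted p under 0.05, 2 of the 6 genes were lower in YG8-800 and 0 were higher. Of the 11875 genes tested 6.05% were called so, 3.01% as lower and 3.04% as higher. At the adjusted threshold edgeR called 0 of the 6 and 0% of all genes, where 718 genes had an unadjusted p under 0.05, DESeq2 called 7 genes and limma-voom called 0. Without WT 4 edgeR called 146 genes and 1695 had an unadjusted p under 0.05, and without a filter on low counts it called 107. The fitted log2 fold change was below 0 in 6 of 6 members and in 50.5% of all genes. The median of the members was −0.75 and that of all genes −0.01. The median of all genes was −0.21 where libraries were scaled by their size only.

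**Figure D3:**
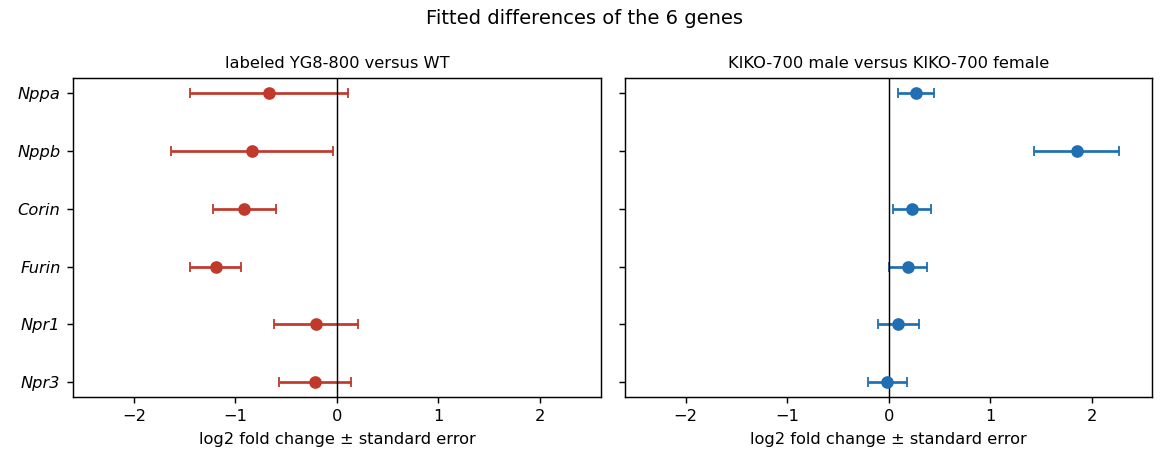
Fitted log2 fold changes of the 6 genes with standard errors, for libraries labeled YG8-800 against WT (left) and KIKO-700 male against female (right). Values below 0 are lower in YG8-800 or in males, *Furin* at −1.20 and *Corin* at −0.91 lie farthest from 0 in the left panel, and *Nppb* at 1.85 does so in the right panel.

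In KIKO-700 hearts *Nppb* was the 1 member that passed the unadjusted threshold between the sexes. It reached 2.56, 2.26 and 2.68 CPM in males, against 0.837, 0.900 and 0.256 CPM in females. The males held 21, 17 and 28 counts and the females 7, 8 and 2 counts, so every male library lay above every female library at a low level. The exact Poisson interval of the highest female library was 0.389 to 1.77 CPM and that of the lowest male library 1.32 to 3.62 CPM, for counting error only, so these neighboring libraries overlapped within counting error. The log2 fold change was 1.85 (standard error 0.42, unadjusted p = 0.000627), 3.61 times higher in males, and the adjusted p was 0.336 in edgeR. The exact permutation p was 0.1, the smallest that 3 against 3 libraries can give. *Nppb* was the 1 of 6 members whose ranges did not overlap. Of the 11801 genes tested 12.5% had such ranges, with males higher in 6.21% and lower in 6.26%. *Nppb* passed the filter on low counts through the male libraries, so its presence among the genes tested is not separate from its difference.

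The adjusted p of *Nppb* was under 0.05 in 2 of 16 alternatives, at 0.0145 without a filter and 0.0125 without male 1, and ran to 1.00 over all of them. In the fit over all 14 libraries the unadjusted p was 0.0996. *Nppb* took 0.199%, 0.233% and 0.179% of the counts of both peptide genes in males, against 0.0850%, 0.0934% and 0.0229% in females (exact permutation p = 0.1).

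*Nppa* stood at 1285, 971 and 1490 CPM in KIKO-700 males, against 984, 963 and 1120 CPM in females. Male 2 lay among the females and the other two males above them (log2 fold change 0.27, standard error 0.17, adjusted p = 0.809 from edgeR, exact permutation p = 0.3). The atrial sum was 909, 827 and 1163 CPM in males and 969, 1054 and 1057 CPM in females, with male 2 lowest in it and lowest of the males in *Nppa*. Over these 6 libraries *Nppa* and the atrial sum had r = 0.489 (permutation p = 0.319, adjusted 0.437) and rho = 0.429 (p = 0.419, adjusted 0.503), and r was −0.61 without the 2 farthest.

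*Furin* stood at 57.2, 45.7 and 34.0 CPM in males, against 41.5, 35.5 and 40.9 CPM in females. *Corin* stood at 35.7, 26.2 and 21.9 CPM in males, against 25.1, 23.7 and 21.4 CPM in females. Male 1 was the highest library in both genes, and without it the log2 fold changes were 0.00 for *Furin* and 0.02 for *Corin*, against 0.19 and 0.23 with it (adjusted p = 0.892 and 0.870 from edgeR). The genes had r = 0.889 over the 6 libraries (permutation p = 0.0222, adjusted 0.0444) and rho = 0.83 (p = 0.0583, adjusted 0.117), but r was 0.439 without the 2 libraries farthest from the median *Furin*.

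*Npr1* stood at 16.9, 10.1 and 12.1 CPM in males, against 11.8, 12.9 and 11.4 CPM in females, and *Npr3* at 22.4, 16.2 and 22.6 CPM in males, against 20.7, 24.1 and 16.3 CPM in females. Neither receptor separated the sexes, with log2 fold changes of 0.10 (adjusted p = 0.963 from edgeR) and −0.01 (adjusted p = 0.993). Of the 6 members 1 was higher in males and 0 were lower at the unadjusted threshold. Of all genes tested 7.14% were called so, 3.39% as higher and 3.75% as lower. The log2 fold change was below 0 in 1 of 6 members and in 49.1% of all genes. At the adjusted threshold 0 of 6 and 0.0678% of all genes were called.

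**Figure D4:**
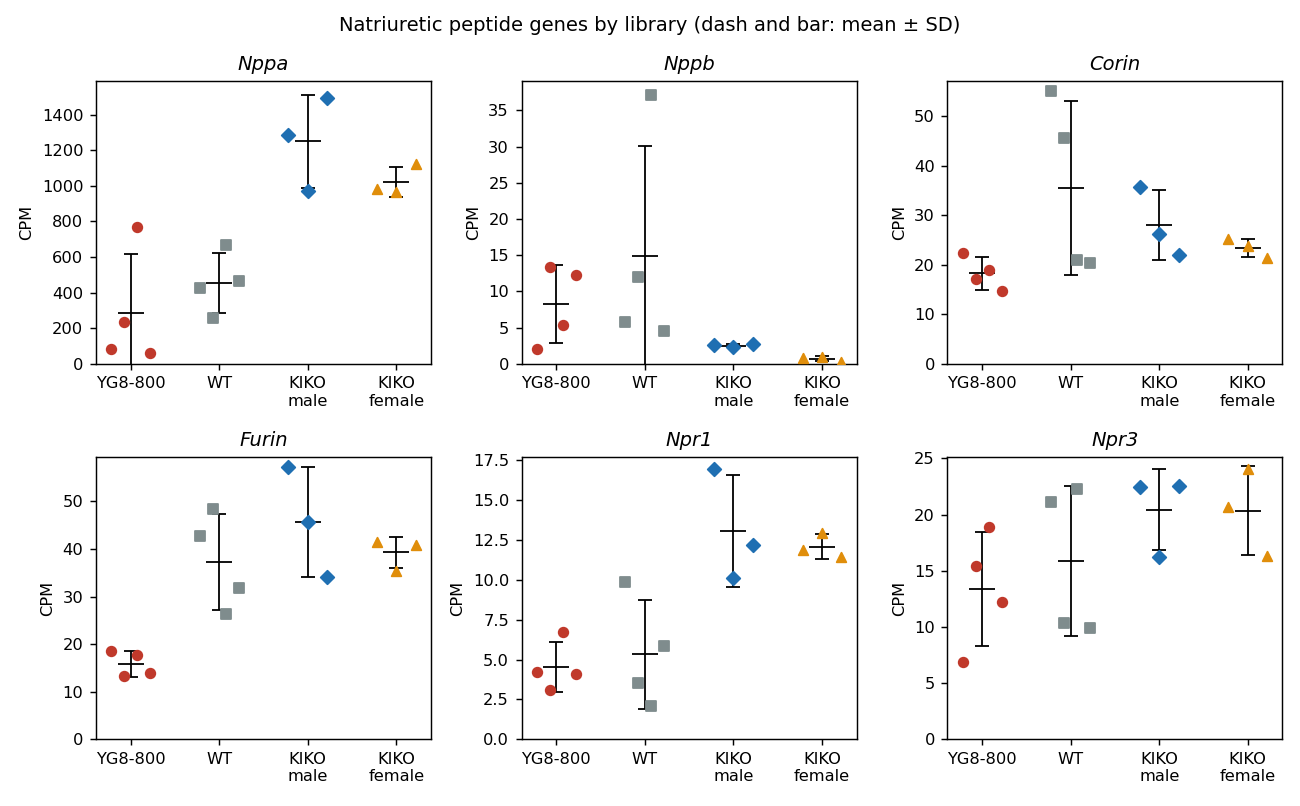
CPM of the 6 genes, 1 point per library, with dashes for group means and bars for SD (n = 4, 4, 3 and 3, cut at 0 on the axis). *Furin* is at 13.2 to 18.7 CPM in YG8-800 and 26.4 to 48.4 CPM in WT, and *Nppb* is at 2.26 to 2.68 CPM in KIKO-700 males and 0.256 to 0.900 CPM in females.

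Levels in the 4 groups are set side by side without a test, since the 2 experiments are different cohorts and line and cohort cannot be told apart. *Nppa* averaged 285 ± 330 CPM in YG8-800, 454 ± 168 CPM in WT, 1249 ± 262 CPM in KIKO-700 males and 1022 ± 84.8 CPM in KIKO-700 females (SD). KIKO-700 males were thus highest, followed by KIKO-700 females, WT and YG8-800, and the only neighbors in this order whose ranges did not overlap were KIKO-700 females and WT. *Nppb* averaged 8.24 ± 5.44 CPM in YG8-800, 14.9 ± 15.2 CPM in WT, 2.5 ± 0.21 CPM in KIKO-700 males and 0.665 ± 0.355 CPM in KIKO-700 females. Its order was WT, YG8-800, KIKO-700 males and KIKO-700 females, and only the last pair did not overlap. *Npr1* showed a gap between KIKO-700 females (12.1 ± 0.79 CPM) and WT (5.32 ± 3.40 CPM). For *Furin* the gap was between YG8-800 and WT, with KIKO-700 males (45.6 ± 11.6 CPM) and females (39.3 ± 3.33 CPM) overlapping with WT. For *Corin* and *Npr3* all neighbors overlapped, with group means of 18.3 to 35.5 CPM and 13.4 to 20.4 CPM. How many of all genes separate KIKO-700 females from WT was not counted, so such gaps cannot be called particular to these genes. Atrial, endothelial, fibroblast, erythroid and mesothelial marker sums separated these groups as well, and the other cell type sums did not. Endothelial markers summed to 217 to 282 CPM in YG8-800, 210 to 337 CPM in WT, 432 to 585 CPM in KIKO-700 males and 455 to 481 CPM in KIKO-700 females. Their part in the level of *Npr1*, which endothelial cells also express, was not tested.

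Some genes went with a member from heart to heart. As deviations from the 4 group means of log2 CPM over 14 libraries, among 7520 genes of at least 5 CPM, *Nppa* was most like *Sln* (r = 0.945), *Tceal8* (r = 0.928) and *Tmem9* (r = 0.906). *Nppb* was most like *Ccm2* (r = 0.885), *Chmp2b* (r = 0.869) and *Gm9701* (r = 0.867). *Furin* was most like *Synj2* (r = 0.957), *Dglucy* (r = 0.928) and *Fyco1* (r = 0.921), and *Corin* most like *Sel1l* (r = 0.926), *Wdfy3* (r = 0.915) and *Tbc1d4* (r = 0.907). *Npr1* was most like *B4galt1* (r = 0.962), *Pbxip1* (r = 0.937) and *Kat14* (r = 0.937). *Npr3* was most like *Arl4a* (r = 0.936), *Rbm22* (r = 0.908) and *Lgals8* (r = 0.902). These are the highest of many values, the libraries share depth and makeup, and the correlations are given as a description.

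The wider pathway was read from 69 genes in 8 lists. In the YG8-800 comparison 55 passed the filter on low counts. At the unadjusted threshold 2 of them were lower and 0 higher, against 3.01% lower and 3.04% higher of all genes, and 0 passed the adjusted threshold in edgeR. The median log2 fold change was −0.15, against −0.01 over all genes. Of the 55, 16 lay above 0 and the rest below 0, and of all genes 50.5% lay below 0. Among the genes not tested were *Nppc* (C-type natriuretic peptide), *Ostn* (osteocrin, a ligand of NPR-C) and *Srf*. In KIKO-700, 54 passed the filter, of which 6 were higher in males and 0 lower at the unadjusted threshold, against 3.39% higher and 3.75% lower of all genes, 0 passed the adjusted threshold, and the median was 0.04, against 0.01 over all genes.

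*Npr2*, the receptor of C-type natriuretic peptide, stood at 13.3 ± 4.31 CPM in YG8-800 and 18.2 ± 0.85 CPM in WT, a log2 fold change of −0.43 (adjusted p = 0.849). Of 4 tested convertases other than furin, 0 passed the unadjusted threshold in either comparison. The shares over all genes were 6.05% in YG8-800 and 7.14% in KIKO-700, so 0 calls among so few genes are near them. *Mbtps1* (site-1 protease) had a log2 fold change of −0.35 and *Pcsk5* one of −0.57 in YG8-800. *Pcsk6*, the convertase known to activate corin, averaged 38.1 ± 11.9 CPM in YG8-800 and 37.8 ± 12.1 CPM in WT. Whether *Furin* differed more than these relatives was not tested. Of the 3 proteases that degrade the peptides, 0 passed in either comparison, again near the shares over all genes. *Ide* (insulin-degrading enzyme) had a log2 fold change of −0.25 and *Mme* (neprilysin) one of 0.09 in YG8-800.

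Downstream of NPR-A, 0 of 5 cGMP effectors and 0 of 6 cGMP phosphodiesterases passed the unadjusted threshold in YG8-800. Of all genes 6.05% passed it, so 0 calls among so few genes are near that share. *Rgs2*, a target of cGMP-dependent kinase, averaged 70.8 ± 20.9 CPM in YG8-800 and 55.1 ± 8.11 CPM in WT. *Prkg1*, that kinase, had a log2 fold change of −0.64 at 0.778 CPM in YG8-800 and 1.22 CPM in WT, with a standard error of 0.76. *Pde3a* and *Pde2a* had log2 fold changes of −0.52 and −0.29. In KIKO-700, *Pde3b* came nearest to the threshold at −0.72 (unadjusted p = 0.0583).

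Of 10 tested transcription factors of the peptide genes, 0 passed the unadjusted threshold in YG8-800, against 6.05% of all genes. All 10 had a log2 fold change below 0, as did 50.5% of all genes. *Gata4*, which binds GATA words such as those in capitals above, ran from 10.8 to 17.9 CPM in YG8-800 and from 17.0 to 24.5 CPM in WT, with a log2 fold change of −0.49 (unadjusted p = 0.0725). *Tead1*, a factor of MCAT words, had −0.56 (unadjusted p = 0.113). In KIKO-700 *Gata4* was higher in males (24.8 ± 2.35 CPM) than in females (19.0 ± 2.52 CPM) at the unadjusted threshold. Its log2 fold change was 0.36 (unadjusted p = 0.0432, adjusted p = 0.681 from edgeR). The ranges did not overlap (exact permutation p = 0.1), as in 6.21% of all genes with males higher. *Mef2c* had a log2 fold change of 0.33 (unadjusted p = 0.088).

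Of 14 hypertrophy genes tested in YG8-800, 1 was lower and 0 were higher at the unadjusted threshold. Of all genes 3.01% were lower and 3.04% higher. *Cilp*, a matrix protein of fibroblasts, stood at 5.73 to 6.42 CPM in YG8-800 and 6.99 to 16.5 CPM in WT, a log2 fold change of −0.71 (unadjusted p = 0.033, adjusted p = 0.812, exact permutation p = 0.0286). *Atp2a2* (SERCA2, the calcium pump of the sarcoplasmic reticulum) had −0.59 (unadjusted p = 0.115). In KIKO-700 males 2 of 13 were higher and 0 lower, against 3.39% higher and 3.75% lower of all genes. *Acta1*, skeletal α-actin of the fetal program, averaged 173 ± 78.3 CPM in males and 81.5 ± 12.9 CPM in females, a log2 fold change of 1.07 (unadjusted p = 0.00231, adjusted p = 0.405). *Ankrd1*, a titin-associated stress protein, had 0.55 (unadjusted p = 0.0372). *Myh7*, the β-myosin heavy chain, had −0.40 (unadjusted p = 0.0575) and did not pass the threshold.

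Furin has many other known substrates, of which 12 were tested in YG8-800 and 13 in KIKO-700. Of all genes 3.01% were lower in YG8-800 and 3.39% higher in KIKO-700 males at the unadjusted threshold. *Itgav* (integrin αV) was the 1 lower in YG8-800, at 4.85 ± 1.87 CPM in YG8-800 and 8.49 ± 3.58 CPM in WT, a log2 fold change of −0.79 (unadjusted p = 0.0425, adjusted p = 0.816). *Bmp4* had −0.53 (unadjusted p = 0.0949). In KIKO-700 males 3 were higher at the unadjusted threshold, *Itga6* by 0.63, *Notch1* by 0.58 and *Tgfb1* by 0.79 on the log2 scale, with adjusted p-values of 0.644 to 0.683 in edgeR. Without male 1, which stood apart, 16 pathway genes passed the unadjusted threshold in place of 6, while 2610 of all 12245 genes tested passed it in place of 843 of 11801.

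**Figure D5:**
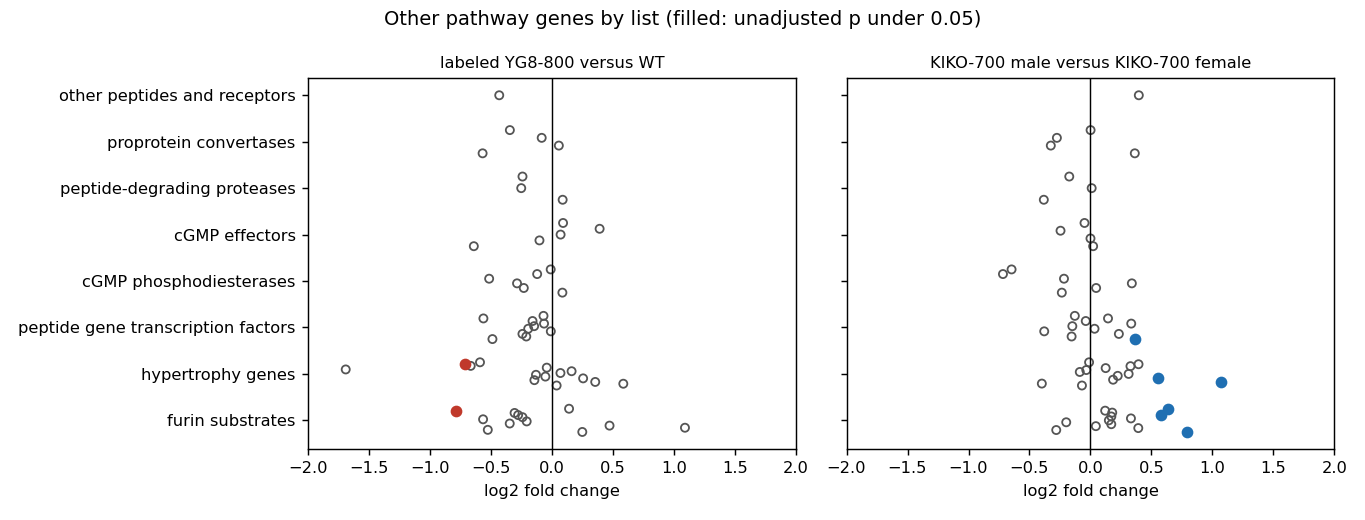
Log2 fold changes of the tested pathway genes by list, for libraries labeled YG8-800 against WT (left, 55 genes) and KIKO-700 male against female (right, 54 genes). Filled points had an unadjusted p under 0.05, which were 2 lower genes in the left panel and 6 higher genes in the right panel.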

How the data were processed

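Whole-number counts of reads per Ensembl gene, 1 file per library, were deposited by the authors without normalization. Libraries were made with the Lexogen QuantSeq FWD kit, which reads the 3′ ends of transcripts. Rsubread and featureCounts are named in the study's methods, but STAR 2.5.0a and HTSeq 0.6.1 with GRCm38.p6 in the processing notes of the submitters, and which of them made the files was not settled. Of 54532 identifiers, 54495 were matched to GENCODE M21. Genes overlapping the members held 0 to 18 counts each over all 14 libraries. These low counts cannot decide how strand affected the members, since reads in a shared stretch may be left out for both genes. *Gm13054*, on the opposite strand, covers the 3′ end of *Nppa*. No molecular identifiers are mentioned, so copies of 1 molecule were not removed and counting intervals cover counting error only.

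Groups were taken from the labels and none was changed. The labels do not say how hearts were drawn into replicates beyond their numbers, so p-values measure the spread between these libraries. Tests used the robust quasi-likelihood model of edgeR 4.0.16 (R 4.3.3) after filterByExpr and TMM scaling, where the study used limma. Log2 CPM used a prior count of 2. Members were compared by exact permutation of library labels as well. The members and lists were chosen with earlier results of these data known. Named pathway genes are those at an unadjusted p under 0.05 in either comparison and up to 2 more per list and comparison with the smallest p. Likeness was ranked among genes of at least 5 CPM. Promoter sequences are from RefSeq, which matched 6 of 6 members.

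Alternatives were RLE and upper-quartile factors, library size alone, mitochondrial DNA genes left out, DESeq2 1.42.0, limma-trend and limma-voom (3.58.1), a minimum of 10 counts in each library, no filter, a replicate block, all 14 libraries in 1 fit, a prior count of 0.5, each library left out in turn, *Xist* as a covariate, and the libraries with high *Xist* alone (a log2 CPM over 3), which was chosen after seeing the data. Whether the replicate numbers pair the libraries was looked at through correlations, which did not settle it. The target gene of the lines is not reported here.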

Additional observations from a re-analysis of the deposited data

How the results depend on the processing

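*Furin* kept its sign and its unadjusted call in YG8-800 in all 21 alternatives, and *Nppb* kept both in 15 of the 16 that gave a KIKO-700 value, the exception being the fit over all 14 libraries. *Nppb* gave none with at least 10 counts in every library, because it was then not tested. Signs turned in these cases, none of them past the unadjusted threshold, and the cause was not tested. In YG8-800, *Nppa* had a log2 fold change of 0.20 in the high *Xist* libraries alone, *Nppb* one of 0.16 and *Npr3* one of 0.0027 without WT 3, and *Npr1* one of 0.10 with the *Xist* covariate and 0.23 without WT 1. With 1 library left out these ran from −1.16 to 0.16 for *Nppb*, from −0.45 to 0.23 for *Npr1* and from −0.43 to 0.0027 for *Npr3*. In KIKO-700, *Npr1* had −0.12 without male 1, and *Npr3* had 0.0023 without a filter, 0.0022 without female 1, 0.12 without female 2 and 0.13 without male 2, with −0.15 as its lowest value with 1 library left out.

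The count of members at an unadjusted p under 0.05 in YG8-800 was 2 and became 1 in the high *Xist* libraries alone, 3 with the *Xist* covariate (*Nppb* added) and 2 to 3 with 1 library left out (*Nppa* added without YG8-800 3). In KIKO-700 it was 1, became 0 with at least 10 counts in every library and 0 in the fit over all 14 libraries, and was 1 to 2 with 1 library left out. The count of other pathway genes in YG8-800 was 2 and became 4 with library size alone, 6 without a filter, 1 with limma-voom, 0 with limma-trend, 5 in the fit over all 14 libraries, 0 with the *Xist* covariate and 0 in the high *Xist* libraries alone, and with 1 library left out it was 0 to 7, highest without WT 4. In KIKO-700 it was 6, became 12 without a filter and 2 in the fit over all 14 libraries, and was 3 to 16 with 1 library left out, highest without male 1. Calls over all genes moved too. In YG8-800 they were 718 of 11875 genes tested, against 1727 of 24532 without a filter. They were 1438 of 13023 in the fit over all 14 libraries and 1695 of 12276 without WT 4. They also rose where the pathway count fell, to 1009 with limma-voom, 888 with limma-trend and 732 with the *Xist* covariate. In the high *Xist* libraries alone they were 282 of 12527. In KIKO-700 they were 843 of 11801, against 1475 of 23238 without a filter and 186 of 13023 in the fit over all 14 libraries. Without male 1 they were 2610 of 12245.

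Correlations between libraries with the same replicate number were −0.23, 0.25, −0.03 and 0.13 in the YG8-800 experiment and −0.16, −0.04 and −0.19 in KIKO-700. Libraries with different numbers were not compared, so whether the numbers pair libraries was not settled. With the replicate block the other pathway genes in YG8-800 numbered 1, and the log2 fold changes were −1.18 for *Furin* (unadjusted p = 0.00108) and 1.89 for *Nppb* in KIKO-700 (unadjusted p = 0.00172). Depth limits *Nppb* in KIKO-700 females, at 2 to 8 counts, and *Npr1* in WT 3, at 10 counts.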

Other observations

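Adipocyte markers, which the comparisons of the peptide system do not use, had genes at an unadjusted p under 0.05 in both experiments. Their 4 genes (*Adipoq*, *Plin1*, *Cfd* and *Cidec*) summed to 8.79, 8.70, 6.31 and 15.1 CPM in YG8-800 1 to 4, against 97.1, 101, 1.87 and 27.5 CPM in WT 1 to 4. At an unadjusted p under 0.05 in edgeR 3 of 4 were lower in YG8-800, against 3.01% of all genes. WT 3 lay below every YG8-800 library in this sum, so the groups overlapped. WT 1 and WT 2, the libraries highest in this sum, were also the highest in *Furin* and *Corin*, and the part of adipose tissue in those values was not tested. In KIKO-700 the sum was 11.5, 7.46 and 11.9 CPM in males, against 38.6, 27.7 and 36.3 CPM in females. At the same threshold 4 of 4 genes were lower in males, against 3.75% of all genes.

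Erythroid markers summed to 1296 to 4360 CPM in YG8-800, 1938 to 5757 CPM in WT, 13669 to 19847 CPM in KIKO-700 males and 15217 to 17322 CPM in KIKO-700 females. *Bmp10*, an atrial ligand that furin cleaves, ranged over 0 to 35.1 CPM in YG8-800, 0 to 15.9 CPM in WT, 50.9 to 64.0 CPM in KIKO-700 males and 45.7 to 64.3 CPM in KIKO-700 females. Line, cohort and dissection cannot be told apart for these levels.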
